A study of Drosophila melanogaster with 3 samples.

Results

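The 73 protein-coding genes whose symbol in the Ensembl gene models starts with mRpL or mRpS and a number encode proteins of the mitochondrial ribosome of Drosophila melanogaster. They were taken from 13945 protein-coding genes on the chromosome arms that carry peaks, by symbol alone, and 47 of them encode large-subunit and 26 small-subunit proteins. Chromatin immunoprecipitation and sequencing was done on whole embryos, male and female pooled, aged 0 to 24 hours. The embryos came from a transgenic line that makes the protein CG18599 with green fluorescent protein (GFP) at its C-terminal end, and an antibody against GFP was used. The 3 biological replicates form 1 group, so there is no other genotype or treatment to compare with, and no control sample was analysed here. Whether the line keeps the untagged gene is not given in the sources used here. Embryos of all these hours and all tissues were mixed, so a peak can come from any of their cells.

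Mitochondrial ribosomes translate the few proteins encoded by mitochondrial DNA, which include core subunits of the respiratory chain. Their RNA is made in the mitochondrion, whereas all of their proteins are encoded in the nucleus, made in the cytosol and imported. CG18599 carries a homeodomain, a DNA-binding fold that often recognises sequences with a TAAT core. In the compact fly genome, genes of general cell functions often stand head to head, so that a single stretch of DNA holds the promoters of both. This arrangement matters for the values below, because a peak in such a stretch lies near the starts of both genes and cannot be given to either from its position.

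Chromosome sequences from RefSeq, matching the dm6 build, show that stretch for 5 of the genes with a peak. The strand is that of the ribosomal protein gene. Each run starts with the base after the start site of the opposite gene and ends with the base before the start site of the ribosomal protein gene. Capitals mark, on either strand, the motif CAGCTG and also TATCGATA and also CGATAG and also TAATTA and also GGTCACAC. The motif CACGTG was searched in the same way. mRpS10, mRpL24 and mRpS2 have the strongest peaks among those with the summit inside such a stretch of at most 300 bases, and mRpL39 and mRpL32 hold the element bound by the factor DREF, TATCGATA. The opposite genes are Art3, betaggt-I, Mon1, Prosbeta2 and qless, in that order. The summit lay at base 123 of 256 in mRpS10, base 75 of 217 in mRpL24 and base 85 of 221 in mRpS2. It lay at base 156 of 284 in mRpL39 and at base 144 of 263 in mRpL32. In all 5 it fell inside the stretch, in a part made mostly of A and T, and in none of them inside a marked motif.
mRpS10 (chr3R:15229409-15229664, plus strand): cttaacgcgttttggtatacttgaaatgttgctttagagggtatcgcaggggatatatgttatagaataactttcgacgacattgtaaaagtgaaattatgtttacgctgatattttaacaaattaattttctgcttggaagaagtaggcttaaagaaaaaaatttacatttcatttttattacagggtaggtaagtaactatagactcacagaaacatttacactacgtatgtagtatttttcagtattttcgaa
mRpL24 (chr2L:4945362-4945578, minus strand): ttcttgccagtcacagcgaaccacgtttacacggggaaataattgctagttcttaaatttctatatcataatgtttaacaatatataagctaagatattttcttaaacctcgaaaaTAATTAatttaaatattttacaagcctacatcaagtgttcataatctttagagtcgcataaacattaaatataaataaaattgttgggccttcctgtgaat
mRpS2 (chr2L:4850420-4850640, minus strand): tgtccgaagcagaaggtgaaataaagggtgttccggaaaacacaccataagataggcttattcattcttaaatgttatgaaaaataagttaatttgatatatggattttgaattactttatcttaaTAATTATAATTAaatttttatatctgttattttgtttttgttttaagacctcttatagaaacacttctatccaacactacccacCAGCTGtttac
mRpL39 (chr3L:14999667-14999950, minus strand): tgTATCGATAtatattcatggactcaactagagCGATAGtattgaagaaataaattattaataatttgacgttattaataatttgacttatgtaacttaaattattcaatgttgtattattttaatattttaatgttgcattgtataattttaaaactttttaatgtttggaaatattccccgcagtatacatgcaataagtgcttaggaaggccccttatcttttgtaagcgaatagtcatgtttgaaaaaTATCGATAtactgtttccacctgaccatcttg
mRpL32 (chr3R:31252609-31252871, plus strand): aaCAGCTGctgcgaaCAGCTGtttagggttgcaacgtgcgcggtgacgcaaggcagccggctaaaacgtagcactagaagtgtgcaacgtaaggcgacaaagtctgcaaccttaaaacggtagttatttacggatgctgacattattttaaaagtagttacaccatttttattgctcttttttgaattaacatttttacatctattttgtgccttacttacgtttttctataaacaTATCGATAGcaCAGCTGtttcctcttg

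For contrast, 3 genes are shown that had no peak in the list kept after the irreproducible discovery rate step (IDR). They face Mitofilin, Ns1 and CG17660, and their stretches are 191, 56 and 40 bases long. These are examples only, and length does not separate genes with a peak from those without. mRpS21, not shown, had no IDR peak and a stretch of 296 bases. mRpL47 and mRpL51, also not shown, had a peak and stretches of 98 and 30 bases. mRpL35 and mRpS11 each had a promoter summit among the stronger entries of replicate 2 alone. Among weaker entries, mRpL35 had one in replicate 1 (rank 14435), and mRpL48 had one in replicates 1 and 2 (ranks 11014 and 13295). The 3 genes thus do not stand for genes without any listed summit.
mRpL35 (chr3R:22023336-22023526, plus strand): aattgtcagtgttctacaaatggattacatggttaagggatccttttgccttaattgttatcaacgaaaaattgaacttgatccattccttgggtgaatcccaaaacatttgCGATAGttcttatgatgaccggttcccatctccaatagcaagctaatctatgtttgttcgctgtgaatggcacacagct
mRpS11 (chr3R:17072676-17072731, plus strand): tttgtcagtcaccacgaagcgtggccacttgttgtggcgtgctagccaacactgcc
mRpL48 (chr2L:1710422-1710461, plus strand): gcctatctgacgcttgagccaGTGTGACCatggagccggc

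The authors' IDR list holds 8858 peaks, and 29 of the 73 genes (39.7%) had a summit within 500 bp of a transcription start site of their own, against 24.0% of all protein-coding genes. Each of the 29 genes had a different peak. By the other common rule, which gives each summit to the single nearest start site within 10 kb, 12 of the 73 genes (16.4%) had one, against 29.9% of all genes. The same genes thus lay above the share of all genes by one rule and below it by the other. The count of these genes fell from 29 to 12 through 17 genes with a promoter summit that was nearer to the start of another gene. The rules also differ in their distance limit. With the nearest-gene rule cut at 500 bp, the shares were 15.1% of these genes and 19.1% of all genes. Among all genes with a summit within 500 bp, 18.7% (627 genes) had none of their own by the nearest-gene rule, and 37.2% of those with an opposite start within 500 bp, against 58.6% of the ribosomal protein genes. Sequencing depth is unknown, since peak lists carry no reads, and the counting error behind the calls cannot be estimated.

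**Figure D1:**
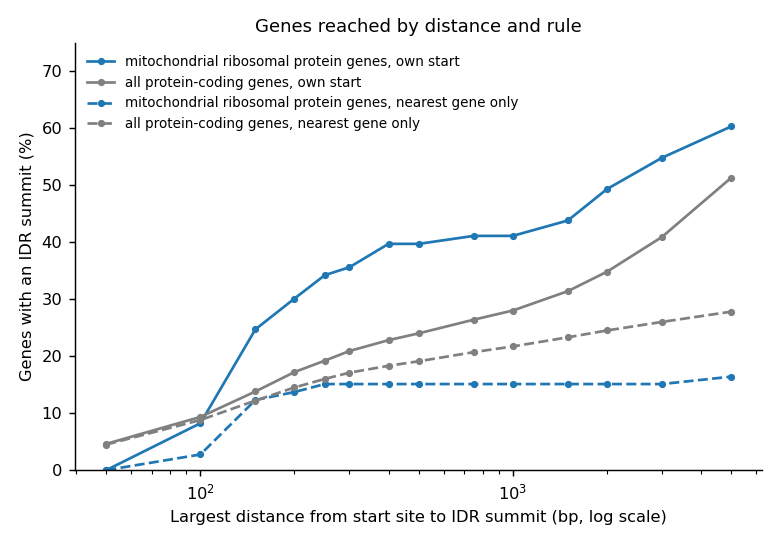
Percentage of genes with an IDR summit within a given distance (bp, log scale) of their start site, for the 73 mitochondrial ribosomal protein genes (blue) and all 13945 protein-coding genes (grey). Solid lines count any summit near a gene's own start and dashed lines count a summit only for its nearest gene; at 500 bp the solid lines stand at 39.7% and 24.0% and the dashed lines at 15.1% and 19.1%.

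The arrangement of the genes goes with this split. Of the 73 genes, 53 (72.6%) had a start site of another protein-coding gene on the opposite strand within 500 bp, against 27.8% of all genes. That start lay upstream in all 53, and 26.8% of all genes had one upstream or at the same position. The stretch of genome closer to a gene's starts than to any other gene's had a median length of 1522 bp for the ribosomal protein genes and 4328 bp for all genes. A single start site was annotated for 67 of the 73 genes (91.8%), against 73.5% of all genes. Of the 53 genes with an opposite start, 27 (50.9%) had an IDR summit within 500 bp, against 38.9% of all genes of that kind. Of the 20 others, 2 had one, mRpL41 and mRpL19, against 18.3% of all such genes. By the nearest-gene rule the counts were 10 of the 53, where 28.0% of all genes with an opposite start had one, and 2 of the 20, where 30.6% of all other genes had one. For summits within 500 bp of an own start, the share was thus above that of all genes among genes with a close opposite neighbour and below it among the others. By the nearest-gene rule it was below in both classes. None of these shares was tested, because genes are not replicates and the study has 1 group.

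The spacing of the 2 opposite starts also differed between genes with and without a peak, a comparison chosen after the values were seen. The median spacing was 290 bp for the 27 genes with an IDR summit and 110.5 bp for the 26 without. Over all genes with an opposite start upstream it was 262 bp with and 229 bp without. With the opposite start within 150 bp, 5 of 20 ribosomal protein genes had a summit, against 32.9% of all genes. With the opposite start at 151 to 500 bp, 22 of 33 (66.7%) had one, against 41.8% of all genes. The ranges overlapped, from 20 to 492 bp with a summit and from 21 to 499 bp without.

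**Figure D2:**
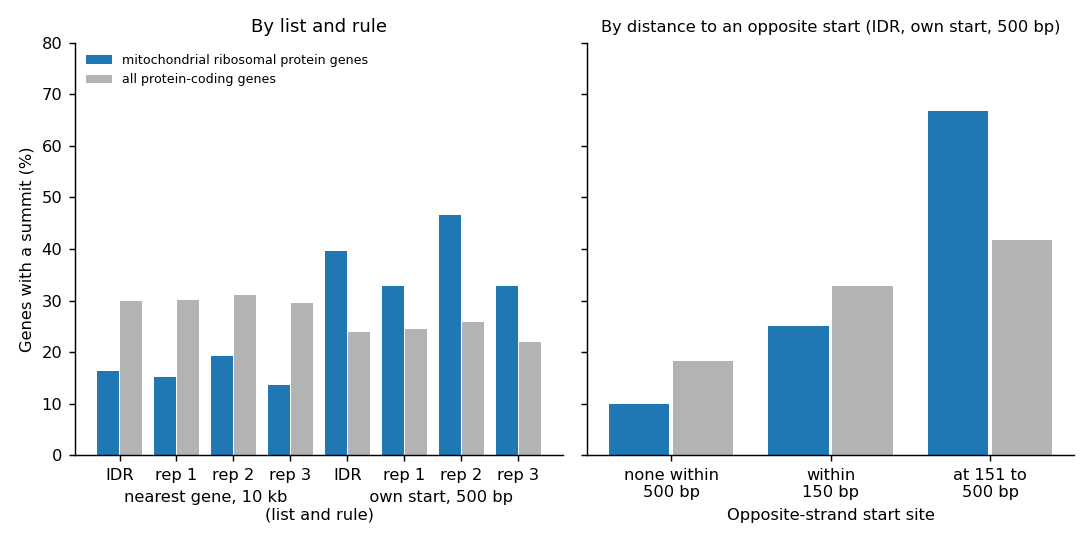
Percentage of genes with a summit, for the 73 mitochondrial ribosomal protein genes (blue) and all protein-coding genes (grey). Left: by list (IDR and the top list of each replicate) and by rule; the blue bars are the lower ones for the nearest gene within 10 kb and the higher ones for an own start within 500 bp. Right: IDR summits within 500 bp of an own start, by distance to an opposite-strand start, where blue is higher only at 151 to 500 bp (66.7% against 41.8%).

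The strongest summits of the 29 genes lay between -400 bp (mRpL33) and 70 bp after the start (mRpL23). Of the 29 genes, 28 had the strongest summit upstream of their start, with a median distance of 137 bp over the 29. Between 50 and 250 bp upstream lay 79.3% of these summits, against 51.7% over all genes with a summit within 500 bp. The median signed positions were -137 and -133 bp. No ribosomal protein gene had an IDR summit within 50 bp of its start, where 4.61% of all genes had one. In 23 of the 27 genes with an opposite start (85.2%) the summit lay between both starts, against 64.5% of all genes with an opposite start upstream and a summit. In 19 of the 27 (70.4%) it was nearer to the opposite start, against 45.9%. Those 19 peaks carry the name of another gene when each peak is named for its nearest start.

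**Figure D3:**
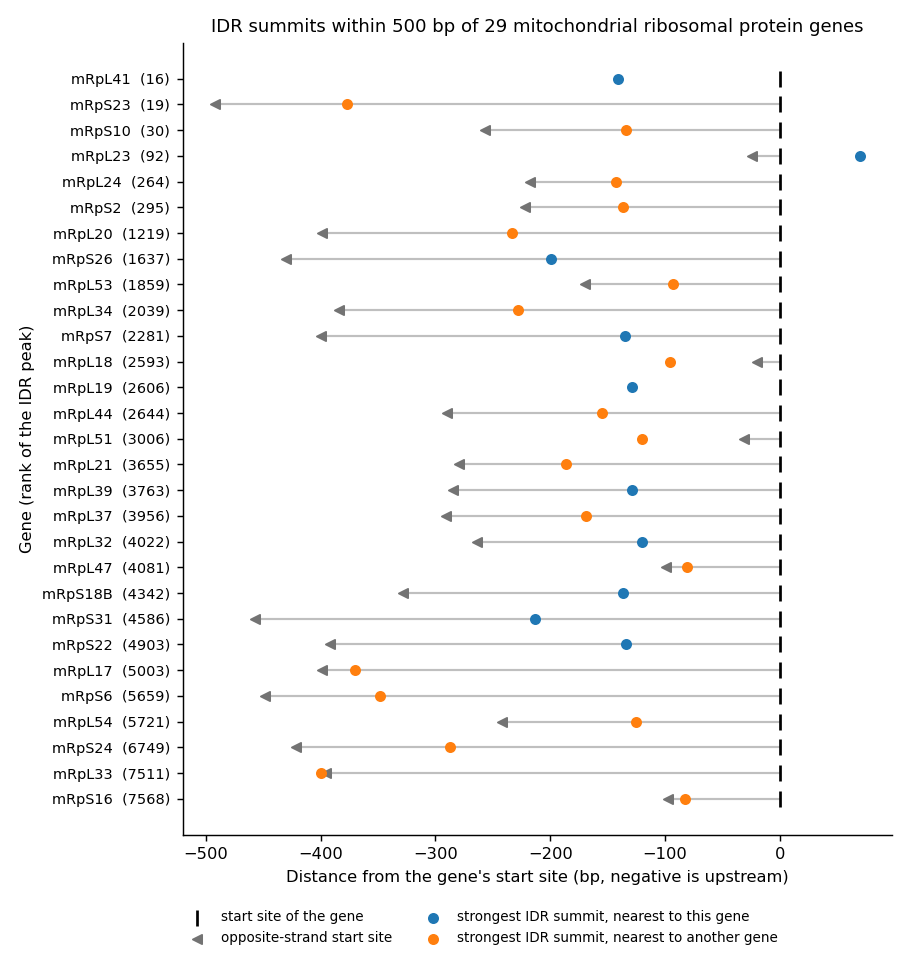
Position of the strongest IDR summit (coloured points) and of the opposite-strand start (triangles) relative to the start of each of 29 mitochondrial ribosomal protein genes, in bp, ordered by the rank of the peak in the IDR list. Of the 29 summits, 28 lie upstream; orange points are nearest to another gene and blue points to the gene itself.

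The strongest peak was that of mRpL41, a large-subunit protein without a counterpart of that number in bacteria. mRpL41 (FBgn0034001, 2R, 15217024 to 15217617, minus strand) had the peak of rank 16, from 15217530 to 15218002, and the authors' signal there was 6218. The summit lay 141 bp upstream of the start, between genes, and 126, 141 and 140 bp upstream in replicates 1, 2 and 3. Its rank was 18, 11 and 25 in these replicates, so the 3 lists placed it alike. mRpL41 was one of the 2 genes with a peak and no opposite start within 500 bp.

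The next peaks lay between head-to-head genes. mRpS23 (FBgn0260407, 2L, 13834250 to 13835072, minus strand) had rank 19, with the summit 377 bp upstream of its start and 115 bp upstream of that of CenG1A, which encodes an Arf GTPase-activating protein. Its ranks in the replicates were 16, 24 and 20. mRpS10 (FBgn0038307, 3R, 15229665 to 15230516, plus strand) encodes a protein that in bacteria sits in the head of the small subunit. It had rank 30, and ranks 24, 27 and 35 in the replicates. The summit stood 134 bp from its start and 123 bp from that of the arginine methyltransferase gene Art3, almost midway in the sequence printed above.

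mRpL23 and mRpL24 encode proteins that, in bacteria, line the mouth of the tunnel through which the new chain leaves the ribosome. mRpL23 (FBgn0035335, 3L, 2372844 to 2373704, minus strand) had rank 92 and ranks 103, 71 and 126 in the replicates. Its summit was the only one downstream, in its exon and 70 bp after the nearest of its 3 annotated starts, which lies inside the gene. mRpL24 (FBgn0031651, 2L, 4944256 to 4945361, minus strand) had rank 264 and ranks 291, 224 and 332. The summit lay 143 bp upstream and was nearer to betaggt-I, a subunit gene of a protein prenyltransferase, at 75 bp. mRpS2 (FBgn0031639, 2L, 4849439 to 4850419, minus strand) had rank 295 and ranks 356, 247 and 381, 137 bp from its start and 85 bp from that of Mon1, a gene of endosome maturation. These 6 genes are the ones with a peak among the strongest 885, the first 10% of the list.

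After them the ranks fell to 1219 and lower. mRpL20 (FBgn0036335, 3L, 13017149 to 13017867, minus strand) had rank 1219, with the summit nearer to Icmt, which encodes a methyltransferase of prenylated proteins. mRpS26 (FBgn0036774, 3L, 18106579 to 18107499, plus strand) had rank 1637, with the summit nearest to its own start at 199 bp. mRpL53 (FBgn0050481, 2R, 13954195 to 13955664, plus strand) had rank 1859, with the summit 93 bp from its start. The summit lay 77 bp from a start of AGO1, the Argonaute gene of the microRNA pathway, and within an intron of AGO1. mRpL34 (FBgn0083983, 2R, 16098948 to 16099337, plus strand) had rank 2039, and its summit was nearer to Dg, the dystroglycan gene. Ranks in the replicates ran from 1130 to 2591 over these 4 genes.

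The other 19 genes with a promoter summit had ranks between 2281 and 7568. Of these, the summit was nearest to the gene itself for mRpS7 (rank 2281), mRpL19 (2606), mRpL39 (3763), mRpL32 (4022), mRpS18B (4342), mRpS31 (4586) and mRpS22 (4903). The summit was nearer to the other gene at mRpL18 (rank 2593, Taz, the tafazzin gene of cardiolipin remodelling), mRpL44 (2644, Snr1, a subunit gene of the Brahma chromatin remodeller) and mRpL51 (3006, Uba4). The same held at mRpL47 (4081, CG8176 and Kdm3, a tie) and mRpL17 (5003, Tudor-SN). It also held at mRpL54 (5721, CG15653), mRpS24 (6749, Apc2, a gene of the Wnt pathway), mRpL33 (7511, norpA, the phospholipase C gene of vision) and mRpS16 (7568, cg). At mRpL18, mRpL51 and mRpL33 the summit lay in an exon of the neighbour.

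At 2 genes the rules named different summits. At mRpL21 the promoter summit (rank 3655, 186 bp upstream) was nearer to rept, the reptin gene, while 2 other summits, 3268 and 9209 bp downstream of its start, were given to mRpL21 (ranks 3739 and 4140). At mRpS6 the stronger of 2 promoter summits (rank 5659, 348 bp upstream) was nearer to Cip4, and the weaker (rank 7793, 93 bp upstream) to mRpS6. mRpS6 was the only gene of the 29 with more than 1 IDR summit within 500 bp. Over the 29 genes the median rank was 3006, against 3003 over all genes with a summit within 500 bp. Of the 29, 20.7% had a peak in the strongest 10% of the list, against 19.0% of those genes. Both values lay close to those of all such genes.

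The replicates were compared over their 8858 strongest entries each, which matches the length of the IDR list. Within 500 bp of an own start, replicate 1 had a summit at 24 of the 73 genes (32.9%; all genes 24.5%), replicate 2 at 34 (46.6%; all genes 25.9%) and replicate 3 at 24 (32.9%; all genes 22.0%). The mean was 37.5% ± 7.91 (SD, n = 3), against 24.1% ± 1.98 for all genes, and the difference was 13.3 ± 6.50 percentage points, above 0 in 3 of 3 replicates. By the nearest-gene rule, replicate 1 had 11 genes (15.1%; all genes 30.1%), replicate 2 had 14 (19.2%; all genes 31.1%) and replicate 3 had 10 (13.7%; all genes 29.5%). The difference was then -14.2 ± 2.06 percentage points (SD, n = 3), below 0 in 3 of 3. In the IDR list the difference by own start was 15.7 percentage points, and it was 9.04 in the IDR peaks supported without replicate 2, which holds the most of these genes.

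Of the 29 genes, 19 (65.5%) had a promoter summit in the top lists of all 3 replicates, 8 in those of 2 and 2 in that of 1. Over all genes with an IDR summit within 500 bp the share was 72.4% in all 3, 19.7% in 2 and 7.23% in 1. The 2 genes seen in 1 top list were mRpL54 and mRpL33, both in replicate 2. mRpL54 had rank 3108 in replicate 2 and 18717 in replicate 3. mRpS22 had ranks 3404, 3813 and 15377 in replicates 1, 2 and 3, and mRpS16 had 5273, 4800 and 16961. At all 3 genes replicate 3 placed the peak far below replicate 2. mRpS7, mRpL44 and mRpL51 stood between ranks 2217 and 2963 in replicates 2 and 3, yet the whole list of replicate 1 had no summit within 500 bp of them. Its nearest summit lay 4410, 2987 and 11022 bp from their IDR summits. With mRpL54, 4 of the 29 genes lacked a summit in the whole list of replicate 1, against 2.81% of all genes with an IDR summit within 500 bp. In replicate 2, 0 of the 29 lacked one (all genes 3.55%). In replicate 3, 2 did (all genes 4.0%), mRpS24 and mRpL33, and at mRpL33 a summit lay 195 bp from the IDR summit. These counts describe the spread between replicates and are no independent evidence, because the IDR list rests on the same data.

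**Figure D4:**
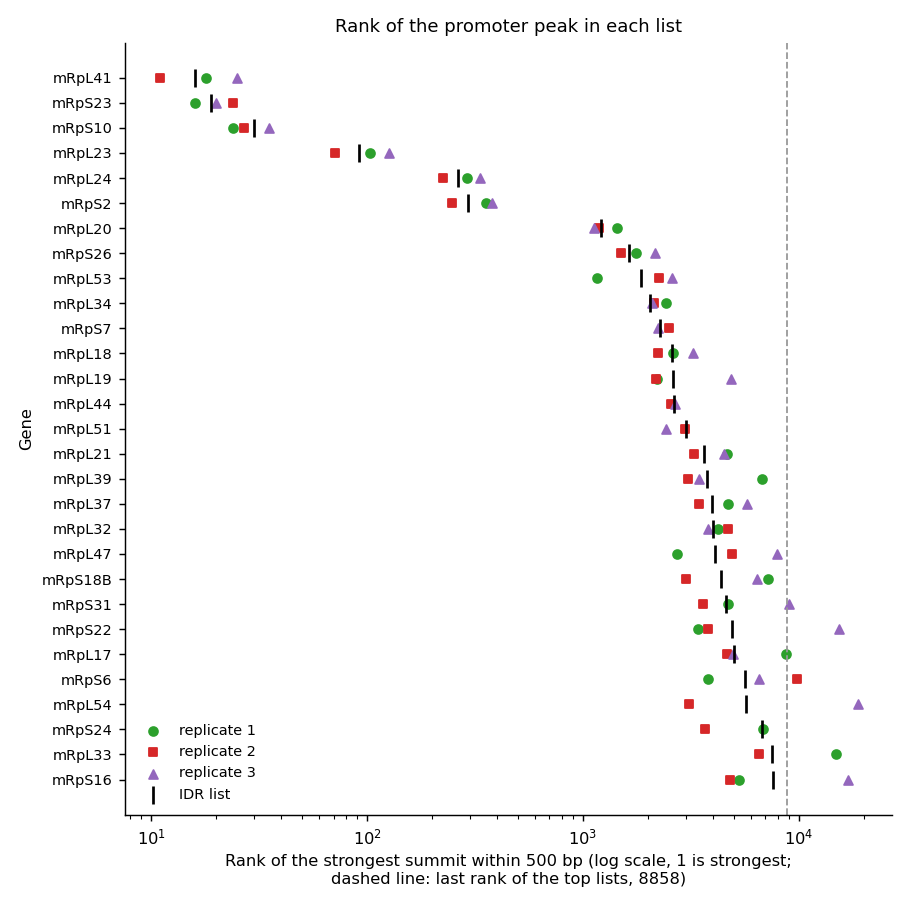
Rank of the strongest summit within 500 bp of the start of each of 29 mitochondrial ribosomal protein genes (log scale, 1 is strongest) in replicates 1, 2 and 3 and in the IDR list; no symbol means no such summit in that list. The first 6 genes keep within ranks 11 to 381 in every replicate, and replicate 3 reaches 18717, at mRpL54.

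By the nearest-gene rule, 7 of the 12 genes had a summit in all 3 top lists. The exceptions were mRpS7, mRpL39, mRpS31 and mRpS22 with 2 and mRpS6 with 1. No gene without an IDR summit by that rule had one in all 3 top lists. The matching shares over all genes are not given here.

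The 44 genes without an IDR summit within 500 bp were mostly without any listed summit there. Of them, 3 had one in the pooled list of 30000 entries, mRpL48, mRpL55 and mRpL50, at ranks 20172, 20382 and 22871. That is 6.82%, against 18.7% of the 10596 protein-coding genes without an IDR summit. In the whole replicate lists, 28 of the 44 had none, 12 had one in 1 replicate, 4 in 2 and 0 in 3. In the top lists, 37 had none and 7 had one in 1 replicate. The matching shares over all genes are not given here, so these replicate counts describe the 44 genes alone. These 7 were mRpL11, mRpL27, mRpL35, mRpL36, mRpS11 and mRpS21 in replicate 2, and mRpL16 in replicate 3. mRpL2, whose counterpart in bacteria sits near the site of peptide bond formation, had an IDR summit upstream at -717 bp (rank 2991). It was the only one of the 44 with a summit between 501 and 1000 bp. The genes without a summit include mRpL10 and mRpL12, which form the stalk that recruits translation factors in bacterial ribosomes, and mRpL3. The guanine nucleotide-binding protein gene mRpS29, known as DAP3 in mammals, had none either.

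The shares were close between subunits and between classes of protein number. Of the large-subunit genes 18 of 47 (38.3%) and of the small-subunit genes 11 of 26 (42.3%) had an IDR summit within 500 bp. Of the 42 genes with a number also used for bacterial ribosomal proteins (up to 36 in the large and 21 in the small subunit) 16 had one (38.1%), and of the 31 with a higher number 13 (41.9%). Of the 3 genes for S18 proteins, mRpS18B had a peak and mRpS18A and mRpS18C had none. By chromosome arm, 6 of 12 genes on 2L, 6 of 12 on 2R, 8 of 17 on 3L and 8 of 21 on 3R had one, against 1 of 11 on X (9.09%). Over all genes the share on X was 24.5%, and on 2L, 2R, 3L and 3R it ran from 22.9% to 26%. The gene on X was mRpL33, with its summit in an exon of norpA.

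Sequences in the promoters were searched for 12 short motifs on both strands, from 250 bp before to 50 bp after the start used by most transcripts. CAGCTG, an E-box, was present in 40 of the 73 promoters (54.8%) and in 17.8% of all 13945. The hit nearest the start lay within 60 bp of it in 36 of the 40 genes (90%), against 57.4% of all genes with a hit, and at a median of 7 bp after the start, against a median of -43 bp. CAGCTG was present in 17 of the 29 promoters with an IDR summit (58.6%) and in 23 of the 44 without (52.3%). The shares with and without a peak were close, and most hits lay away from the summit. Among the 17 the median distance from the motif to the summit was 121 bp, and 1 gene had it within 50 bp. mRpS2 and mRpL32, printed above, hold it close to the end of the run.

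TATCGATA was present in 15 of the 73 promoters (20.5%) and in 9.23% of all. It was found with a peak at mRpL17, mRpL19, mRpL20, mRpL32, mRpL39, mRpS18B and mRpS23, and in 8 promoters without. Of all 1287 genes with TATCGATA, 390 had an IDR summit within 500 bp. CGATAG, which can overlap it, was present in 27 (37.0%) and in 19.5% of all. GAGAG, bound by the GAGA factor, was present in 11 (15.1%) and in 30.2% of all. GGTCACAC, the core of the M1BP element, was present in 8 (11.0%) and in 7.79% of all. No peak was found at 7 of the 8 genes, where 44 of all 73 had none. Of all 1086 genes with GGTCACAC, 332 had an IDR summit within 500 bp. CACGTG was present in 5 (6.85%; all 4.2%) and GCGCATGC in 1, mRpL21 (1.37%; all 1.07%). The motifs made of A and T were close to the share of all promoters, with TAATTA at 20.5% (all 20.1%), TAAT at 97.3% (all 92.9%), TATATA at 21.9% (all 23.6%) and ATATTA at 38.4% (all 33.0%). AAATAC was present in 37.0% (all 33.3%). Some of these differed between ribosomal protein genes with and without an IDR summit. TATATA was present in 34.5% of the 29 promoters with one and in 13.6% of the 44 without, and ATATTA in 51.7% and 29.5%. AAATAC was present in 24.1% and 45.5%. TAATTA was present in 24.1% and 18.2%. Over all genes with an IDR summit within 500 bp, TATATA was present in 23.2%, ATATTA in 35.6%, AAATAC in 34.7% and TAATTA in 20.0%. Those shares were close to the shares of all promoters. The splits among the ribosomal protein genes rest on few genes, for TATATA 10 of the 29 and 6 of the 44, and were not tested. A match is a description of these letters, not a binding site.

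Around the summits themselves the DNA was rich in A and T. In windows of 51 bp the share of A and T was 70.8% ± 12.1 (SD over 29 peaks), against 62.7% ± 12.8 over the 3196 IDR peaks within 500 bp of a start. Within 50 bp of the summit TAATTA was present at 6 of the 29 peaks (20.7%), against 8.70% of the 3196, ATATTA at 8 (27.6%; 16.6%) and TAAT at 23 (79.3%; 67.1%). TATCGATA was at none of the 29 (all 1.94%) and CAGCTG at 1 (3.45%; all 5.73%). The larger shares of the motifs made of A and T were found at summits that also stood in DNA richer in A and T. Whether the 2 are related was not tested.

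Other gene groups of mitochondrial function had smaller shares with a summit within 500 bp of an own start. Of the 2 mitochondrial ribosomal protein genes under other symbols, tko and bonsai, which encode proteins S12 and S15, 0 had one. Of 10 genes of translation factors and related proteins 1 had one, the elongation factor G gene mEFG1 (rank 8487). Of 15 mitochondrial aminoacyl-tRNA synthetase genes 2 had one (13.3%), ArgRS-m (rank 2259, 130 bp from its start) and ProRS-m (rank 4999). Of 8 genes of mitochondrial DNA maintenance and transcription 2 had one, mtSSB, which encodes the single-stranded DNA-binding protein (rank 1239), and mtTFB1 (rank 8267). Of 15 genes of the import translocases 2 had one (13.3%), Tom7 (rank 988) and Tim9a (rank 3315), and both summits were nearer to another gene. All of these shares except that of the DNA group lay below the 24.0% of all genes, and the lists are small. By the nearest-gene rule the order was different, with 2 of the 10 translation factor genes, 2 of the 8 DNA and transcription genes and 4 of the 15 import genes (26.7%) having a summit. These 3 shares lay above the 16.4% of the ribosomal protein genes and below the 29.9% of all genes by the same rule. Of the 15 synthetase genes 1 had a summit by that rule (6.67%), and neither tko nor bonsai had one. The cytosolic ribosomal protein genes are the closest comparison in function. Of 91 genes, 64 (70.3%) had an IDR summit within 500 bp and 66 (72.5%) by the nearest-gene rule, with a median position of -40.5 bp. There, 2 genes had a promoter summit given only to another gene, against 17 of the 29 mitochondrial ribosomal protein genes, and an opposite start within 500 bp was present for 38.5%. These values are set side by side without a test.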

How the data were processed

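The deposited files are peak lists on the dm6 and dm3 builds, per the labels; the dm3 lists were not used. Per the deposited notes, the authors made each replicate list from the reads of the replicate and a control, the pooled list from the 3 replicates, and the IDR list from these lists. Which aligner, peak caller and IDR threshold were used is not given in the sources used here. The deposited signal value has no stated scale and gave the order of the peaks in each list. Another deposited column, taken to hold −log10 q-values, gave a second order. The replicate lists and the pooled list have a fixed length of 30000 entries.

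Coordinates are dm6, counted from 1. Gene models were those of Ensembl release 115, on 2L, 2R, 3L, 3R, 4 and X. A summit was the start plus the deposited offset. Where start sites were equally near, the summit was given to every gene there, so 4171 of 13945 genes had one. The assignment steps were tested on simulated data. Python 3.11.15, pandas 2.3.3 and pysam 0.24.0 were used.

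The genes and lists were chosen with earlier results of these data known. The named genes are every member with an IDR summit by either rule, those seen unevenly across replicates, and up to 3 of each related list. Names in 2 lists were matched through RefSeq synonyms, and mEFG2, mtRF1, tam and Twinkle stayed unmatched. No test was run: the study has 1 group, and genes are not replicates. Alternatives were the distance, the part of the list, the ranking, the gene type, and leaving out each replicate. For counts from the IDR list, leaving out a replicate did not remake that list, which still rests on all 3 replicates. It kept the IDR peaks with a summit within 250 bp in the top lists of both other replicates. The neighbour of 1 member is not reported here.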

Additional observations from a re-analysis of the deposited data

How the results depend on the processing

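The count by the nearest-gene rule was 12, and it was 9 to 12 with 1 kb, 500 bp, the strongest 4429 peaks, start sites of any gene type, or without 1 replicate (9 to 10). It was 29 when each summit was given to every gene with a start within 500 bp. The difference from all genes, -13.5 percentage points, was -6.59 with 1 kb, -4.06 with 500 bp, -6.95 in the strongest 4429 and -12.3 to -11.7 without 1 replicate. It turned to 15.7 when every gene within 500 bp was counted, a setting added after the data were seen; by construction this keeps summits shared with a neighbour. The count by own start, 29, was 25 at 250 bp, 30 at 1 kb, 21 in the strongest 4429 and 20 to 23 without 1 replicate. Its difference from all genes, 15.7 points, was 13.1 at 1 kb and in the strongest 4429, 15.0 at 250 bp and 9.04 (without replicate 2) to 13 without 1 replicate; these were added after the data were seen. The replicate mean by the nearest gene, 11.7 genes, was 17.7 with the whole lists, 8.33 with 4429 entries each, 11.7 ranked by the q-value column and 10.5 to 12.5 without 1 replicate. The median distance of 134 bp from start to summit by that rule was 135 in the strongest 4429. With promoters from 100 bp before the start, CAGCTG was at 52.1% (all 12.1%) and TAATTA at 5.48% (all 6.74%). No paired analysis was possible because there is 1 group. The lists give no depth, and no control was analysed here.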
